A study of Homo sapiens with 8 samples.

Results

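A set of 9 genes that the transcription factor NRF2 controls was followed across FT293 cell lines that expressed GFP or the GFP-tagged RNA-binding proteins HuR, TIA1 or TIAR. They were ME1, SLC7A11, NQO1, GCLM, GCLC, TXNRD1, SRXN1, HMOX1 and OSGIN1, which make up 9 of the 36337 gene names on the array, and each was measured by 1 of the 50599 probes. They were chosen by name, as known targets of the pathway, with earlier results of these data known. FT293 cells are HEK293 human embryonic kidney cells in which a transgene sits at a defined genomic site and is switched on by tetracycline. All 4 lines therefore shared the HEK293 background, the recombinase-based insertion, the GFP tag and the tetracycline treatment, and differed in the protein fused to GFP. RNA was taken on day 3 of induction, and 2 one-colour arrays were hybridized for each line, 8 in all. Each line is a single stable isogenic line, so a difference between lines is a difference between these cultures.

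NRF2, encoded by NFE2L2, is held in the cytoplasm and passed to degradation by KEAP1 with the CUL3 ubiquitin ligase. Oxidants and electrophiles release it, and in the nucleus it pairs with a small MAF protein (MAFF, MAFG or MAFK) on antioxidant response elements, from which BACH1 can displace it. Its targets supply cystine, glutathione and NADPH, reduce thioredoxin and quinones, and break down haem.

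The antioxidant response element is the sequence through which these genes are linked, so the stretches that hold its core are shown for the members whose promoter table has a match. RefSeq promoters (GRCh38.p14, from 250 bases before to 50 bases after a start) were at hand for 7 of the 9 genes, SLC7A11 and HMOX1 not among them. The core TGACNNNGC was searched on both strands, where it can overlap binding motifs of related factors, and was found in 13.3% of all 35116 promoters. It was present in 3 of the 7 members, ME1, GCLM and TXNRD1, and not in the windows of NQO1, GCLC, SRXN1 and OSGIN1. In the stretches of 60 bases below, written 5′ to 3′ on the gene's strand, capitals mark the match.
ME1, chr6:83431155-83431214, minus strand: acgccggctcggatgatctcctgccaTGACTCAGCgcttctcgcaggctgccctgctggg
GCLM, chr1:93909431-93909490, minus strand: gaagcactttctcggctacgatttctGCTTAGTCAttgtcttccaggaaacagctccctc
TXNRD1, upstream start, chr12:104215654-104215713, plus strand: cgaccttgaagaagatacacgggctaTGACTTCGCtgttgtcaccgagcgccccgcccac
TXNRD1, downstream start, chr12:104286904-104286963, plus strand: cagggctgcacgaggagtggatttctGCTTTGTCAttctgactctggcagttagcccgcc
The ME1 match began at -137 from the start site and that of the upstream TXNRD1 start at -99. Those of GCLM and of the downstream TXNRD1 start lay on the opposite strand, at -34 and -102. The windows of ME1 and of the upstream TXNRD1 start each held 1 further match, at 11 and -8 on the opposite strand, which is not shown.

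Signals are intensities on the log2 scale relative to the 75th percentile of their own array, so 0 is that percentile and a difference of 1 is a factor of 2. The values belong to 1 probe each and were not compared between genes. Probe positions are given on hg19 as in the array design, and without a genome they were not assigned to exons or untranslated regions. A comparison between lines used limma on the 4 arrays of those lines, and took in every probe that the scanner software marks well above background on both of a line's arrays, in either line. Calls required a difference of 2-fold or more together with a Benjamini-Hochberg adjusted p under 0.05, and the number of arrays limits the precision.

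The arrays of HuR, TIA1 and TIAR lines were alike in quality, and the first GFP array stood apart. On 7 arrays, 53.3% to 58.6% of probes rose well above background, against 86.1% on GFP 1. Its mean local background was 79.3 intensity units, against 27.8 to 33.8 on the others, and Pearson's r across probes between replicates was 0.947 for GFP and 0.993 to 0.997 for the other lines. A probe of TIAL1, the gene of TIAR, was 2.44 higher (log2) in TIAR than in HuR lines, while another TIAL1 probe differed by -0.38 (adjusted p = 0.095 from limma). The ELAVL1 and TIA1 probes were not highest in the HuR and TIA1 lines and so do not check those labels. Of 8 marker genes of the HEK293 line, 7 were well above background on all arrays. Among 7 genes of blood and liver cells, 3 were above background on all arrays, and ALB, a liver gene, was between 2.62 and 2.82 higher in the TIA lines than in the HuR line. The part of that marker in the results below was not tested.

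**Figure D1:**
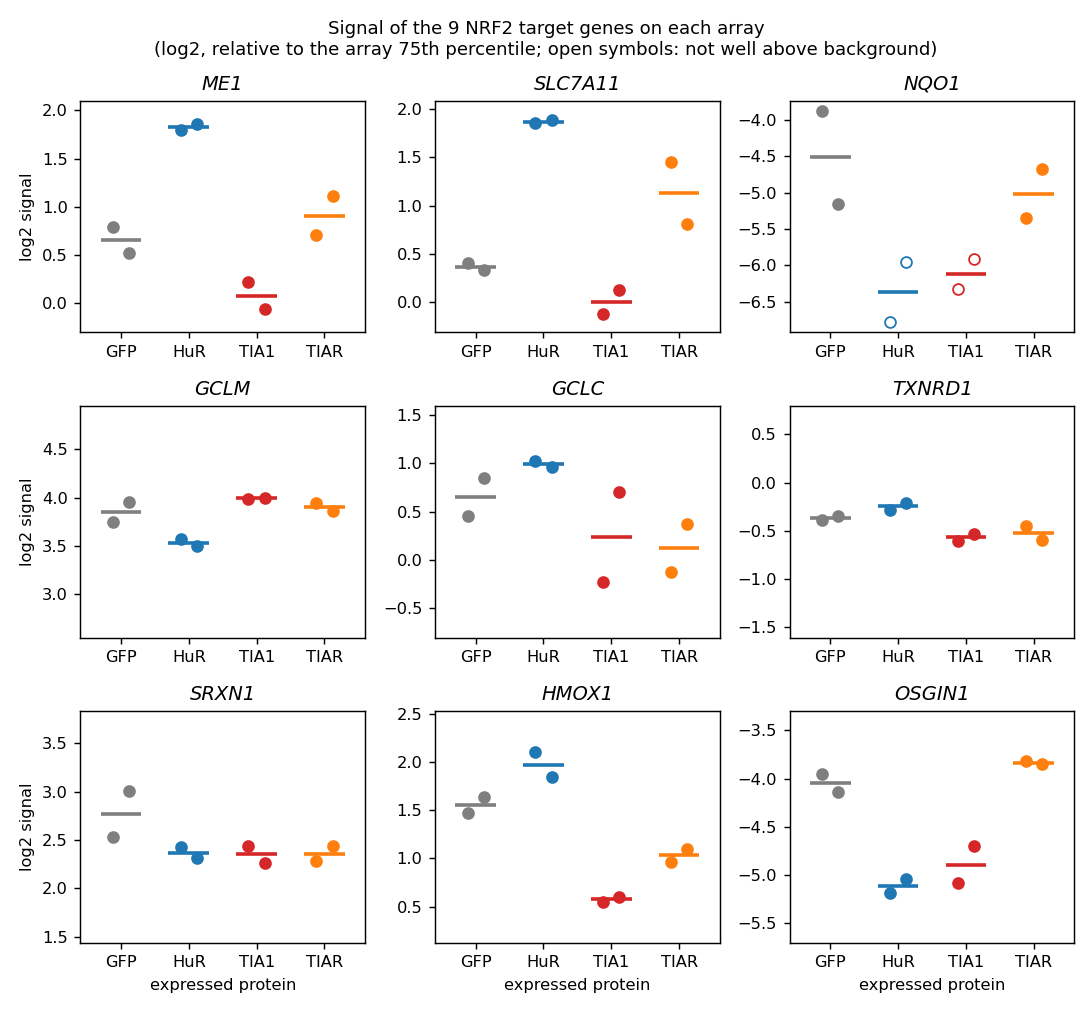
Log2 signal relative to the array's 75th percentile (y axis) of the 9 NRF2 target genes on each of the 8 arrays, by expressed protein (x axis). Points are arrays, horizontal lines are means of 2 arrays, and open points were not well above background. For ME1, SLC7A11 and HMOX1 both HuR arrays lie above both TIA1 arrays, while the SRXN1 points of HuR, TIA1 and TIAR overlap.

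SLC7A11 (NM_014331, chromosome 4 from 139085433 to 139085492), the cystine importer that feeds glutathione synthesis, was highest in HuR-expressing cells and lowest in TIA1-expressing cells. Its log2 signal was 1.85 and 1.89 on the HuR arrays, 1.45 and 0.81 on the TIAR arrays, 0.40 and 0.33 on the GFP arrays and -0.12 and 0.12 on the TIA1 arrays. No pair of lines overlapped, although the TIAR arrays lay 0.65 apart. The signal was 3.66-fold lower in TIA1- than in HuR-expressing cells (log2 fold change -1.87, standard error 0.12, adjusted p = 0.0027 from limma).

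ME1 (NM_002395, chromosome 6 from 83920796 to 83920855) makes NADPH from malate in the cytosol, and its level followed a similar order. It read 1.80 and 1.86 in HuR-expressing cells, 0.71 and 1.11 with TIAR, 0.79 and 0.52 with GFP, and 0.22 and -0.06 with TIA1. The HuR arrays were above and the TIA1 arrays below all others, and TIAR and GFP overlapped. Between TIA1 and HuR it changed by -1.75 (standard error 0.13, with an adjusted p = 0.0032 from limma), a 3.36-fold lower signal.

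HMOX1 (NM_002133, chromosome 22 from 35790122 to 35790181), the enzyme that opens the haem ring, was the third member called. On its 10 spots per array, of which 9 were used on TIAR 2, the means were 2.10 and 1.84 with HuR, 1.47 and 1.64 with GFP, 0.96 and 1.10 with TIAR and 0.55 and 0.60 with TIA1. No lines overlapped in this order of HuR, GFP, TIAR and TIA1. The spots of 1 array had standard deviations of 0.02 to 0.16, which is within-array error only. TIA1-expressing cells had a 2.63-fold lower signal than HuR-expressing cells (log2 fold change -1.40, standard error 0.13, adjusted p = 0.0041 from limma).

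Of the 9 members, 8 were tested between TIA1 and HuR, and 3 were called lower and 0 higher. Of all 28717 probes tested in this comparison, 4.84% were called lower and 8.6% higher. The median log2 fold change of the tested members was -0.54, against 0.09 for all probes, and the arrays of the lines did not overlap for 6 of the 8 tested members, about the share over all tested probes, 75.7%.

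**Figure D2:**
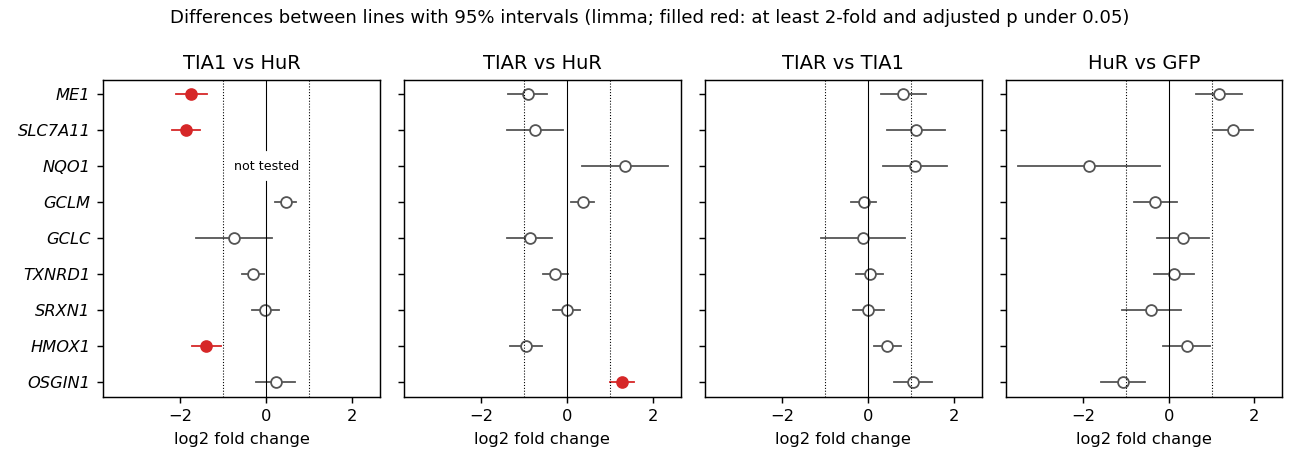
Log2 fold change (x axis) of the 9 genes (y axis) in 4 comparisons, the first line minus the second, with 95% intervals from limma. Filled red points were called, open points were not, and dotted lines mark a factor of 2. ME1, SLC7A11 and HMOX1 were called lower between TIA1 and HuR and OSGIN1 higher between TIAR and HuR. NQO1 was not well above background with HuR or TIA1, so its fitted points are no measure of size.

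The glutathione synthesis enzymes were not called between TIA1 and HuR. GCLM (NM_002061, chromosome 1 from 94352810 to 94352869), the modifier subunit of glutamate-cysteine ligase, read 3.99 and 4.00 on the TIA1 arrays, 3.94 and 3.86 with TIAR, 3.75 and 3.95 with GFP and 3.57 and 3.50 with HuR. It was thus lowest in the line in which SLC7A11 was highest. The difference of TIA1 from HuR, 0.46 (95% interval 0.21 to 0.70, adjusted p = 0.022 from limma), was under 2-fold and not called. GCLC (NM_001498, chromosome 6 from 53362197 to 53362256), the catalytic subunit, varied more between replicates, with 1.02 and 0.96 with HuR, 0.46 and 0.85 with GFP, -0.23 and 0.70 with TIA1 and -0.13 and 0.37 with TIAR. Its fold change from HuR to TIA1 was -0.76 (95% interval -1.65 to 0.13, adjusted p = 0.13 from limma). It ranged from -1.23 to -0.30 over the settings tried, some of which left out 1 array.

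TXNRD1 (NM_003330, chromosome 12 from 104732949 to 104733008) and SRXN1 (NM_080725, chromosome 20 from 627563 to 627622) act on protein thiols, the first by reducing thioredoxin and the second by repairing overoxidised peroxiredoxins. TXNRD1 lay between -0.60 and -0.21 on all 8 arrays, highest with HuR at -0.28 and -0.21, and differed by -0.32 between TIA1 and HuR (95% interval -0.57 to -0.06, adjusted p = 0.058 from limma). For SRXN1 the signals were 2.43 and 2.31 with HuR, 2.44 and 2.26 with TIA1, 2.28 and 2.44 with TIAR and 2.53 and 3.01 with GFP. The HuR, TIA1 and TIAR arrays overlapped, and the interval of the TIA1 difference was -0.33 to 0.29.

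NQO1 and OSGIN1 were dim. NQO1 (NM_000903, chromosome 16 from 69744274 to 69744333), which reduces quinones, failed to rise well above background on the HuR and TIA1 arrays and had signals of -5.35 and -4.68 with TIAR and -3.88 and -5.15 with GFP. It was not tested between TIA1 and HuR, and passed the filter in both lines between TIAR and GFP. In the other comparisons it passed only through the line where it was high. Against HuR it was at least 1.89-fold higher with TIAR (adjusted p = 0.059 from limma), and its GFP values include the array with the raised background. OSGIN1 (NM_182981, chromosome 16 from 83999149 to 83999208), a growth inhibitor induced by oxidative stress, read -3.82 and -3.85 with TIAR, -3.95 and -4.14 with GFP, -5.08 and -4.70 with TIA1 and -5.18 and -5.04 with HuR. TIAR and GFP formed the upper pair of lines, and TIA1 and HuR overlapped below them. This order depended on the scaling, since with quantile normalization OSGIN1 differed from GFP by 0.57 with TIA1 and by 0.63 with HuR, against -0.84 and -1.06.

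In TIAR- versus HuR-expressing cells, OSGIN1 was the 1 member called, 2.41-fold higher (log2 fold change 1.27, standard error 0.10, adjusted p = 0.0059 from limma), and 0 were called lower. All probes tested, 29054, gave 7.15% called higher and 2.93% called lower. Both counts fell when either HuR array was left out. Omitting HuR 1 took the calls from 2076 higher and 851 lower to 682 and 97, and omitting HuR 2 took them to 591 and 90. The OSGIN1 call did not remain with normexp background correction, with quantile normalization, with the authors' values, or without HuR 1 or HuR 2, and its fold change ranged from 0.31 to 1.34 over the settings tried. The 3 genes called lower with TIA1 differed by less than 2-fold with TIAR, HMOX1 with -0.95 (adjusted p = 0.015), ME1 with -0.92 (adjusted p = 0.024) and SLC7A11 with -0.74 (adjusted p = 0.084, all from limma). GCLC changed by -0.87 (adjusted p = 0.037 from limma). The 9 members had a median of -0.27 against 0.06 over all probes. Over the settings tried, some of which left out 1 array, the fold changes from HuR to TIAR varied. They ranged from -1.08 to -0.82 for HMOX1, -1.12 to -0.72 for ME1, -1.12 to -0.62 for GCLC and -1.07 to -0.42 for SLC7A11. The comparisons with HuR share the HuR arrays.

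Set directly against each other, the TIA lines gave no called member, 0 higher and 0 lower, by limma, with 5 of 9 members at an unadjusted p under 0.05, against 23.7% of all probes. NQO1, 1 of the 5, passed the filter only through TIAR. Of all 28017 probes tested, 1.26% were called higher with TIAR and 1.11% lower. These counts, 352 and 311, fell to between 3 and 35 higher and between 1 and 9 lower without any 1 array (TIAR 1, TIAR 2, TIA1 1 or TIA1 2), and to 0 and 0 with the replicate number as a block. SLC7A11 was 1.13 higher with TIAR (95% interval 0.45 to 1.80, adjusted p = 0.091 from limma), ME1 0.83 higher (interval 0.31 to 1.35, adjusted p = 0.098), OSGIN1 1.06 higher (interval 0.61 to 1.50, adjusted p = 0.053) and HMOX1 0.45 higher (interval 0.14 to 0.77, adjusted p = 0.12). So the lower signals of ME1, SLC7A11 and HMOX1 with TIA1 were not shown to differ from those with TIAR. With array weights SLC7A11 and OSGIN1 were called higher, beside 1.37% of all probes. With probes well above background on all 4 arrays OSGIN1 was, beside 0.839%.

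Against GFP, limma called 0 of all probes in each comparison, 0% higher and 0% lower, of 27997 tested for TIA1, 28541 for TIAR and 28827 for HuR. At an unadjusted p under 0.05, 5957, 4575 and 4857 probes stood (21.3%, 16% and 16.8%), and 3, 0 and 4 of the 9 members. NQO1 is among the 3 and among the 4, and passed the filter in both comparisons only through GFP. The counts of called members with TIA1 and with HuR changed when either GFP array was left out. Without GFP 1, SLC7A11 and ME1 were called higher with HuR, and HMOX1 lower with TIA1. Without GFP 2 the calls were SLC7A11 and ME1 higher and OSGIN1 and NQO1 lower with HuR, and NQO1 lower with TIA1. In those fits without GFP 1, 4.49% of all probes were called higher and 3.96% lower with HuR, and 7.29% and 4.24% with TIA1. Without GFP 2, the shares were 4.36% higher and 19.9% lower with HuR, and 7.71% and 16% with TIA1, so calls lower than GFP were common there. With both GFP arrays, the fold changes of HuR over GFP were 1.51 for SLC7A11 (adjusted p = 0.16) and 1.17 for ME1 (adjusted p = 0.19, both from limma), and all 8 arrays in 1 fit called those genes higher and OSGIN1 lower. That fit called 1.33% of all probes higher and 2.6% lower with HuR than with GFP. OSGIN1 was -1.06 against GFP in the HuR line, but this turned to 0.63 with quantile normalization and 0.05 with the authors' values. HMOX1 differed by -0.98 between TIA1 and GFP (adjusted p = 0.13 from limma). In these comparisons, which share the GFP arrays, no member was called between TIAR and GFP in any setting. Over the 9 members, NQO1 included, the medians were -0.42 for TIA1, -0.15 for TIAR and 0.12 for HuR, against 0.01, -0.02 and -0.04 over all probes.

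Among the regulators, the NFE2L2 probe was not well above background on any of the 8 arrays, so no level of NRF2 RNA could be compared. BACH1, the repressor that competes for the response element, was higher with TIA1 than with HuR by 1.37 (adjusted p = 0.003, called) on 1 probe and by 0.89 (adjusted p = 0.0067) on the other, from limma. On the first probe the TIA1 arrays read -1.85 and -1.98 and the HuR arrays -3.29 and -3.28, with no overlap. That probe was left out between TIAR and HuR because its spot on TIAR 1 was an outlier, and the other was 0.57 higher with TIAR (adjusted p = 0.019 from limma). MAFF, a small MAF partner, was called higher with TIA1 (1.11, adjusted p = 0.0058) and with TIAR (1.21, adjusted p = 0.007, both from limma). The probes of MAFG, another small MAF, differed by 0.59 and 0.45 with TIA1, and that of MAFK by 0.42, all under 2-fold. KEAP1, the inhibitor, differed by -0.76 between TIA1 and HuR (adjusted p = 0.01 from limma) and not called. CUL3 was called lower with TIAR on 1 probe (-1.36, adjusted p = 0.012 from limma), whereas the other CUL3 probe changed by -0.29. Of the 15 regulator genes tested, on 19 probes with TIA1 and 18 with TIAR, 2 were called higher and 0 lower with TIA1, and 1 higher and 1 lower with TIAR. Each was called on 1 probe, and the medians were -0.10 and 0.04. Of all probes, 8.6% were called higher and 4.84% lower with TIA1, and 7.15% and 2.93% with TIAR, so these are small counts near the background.

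**Figure D3:**
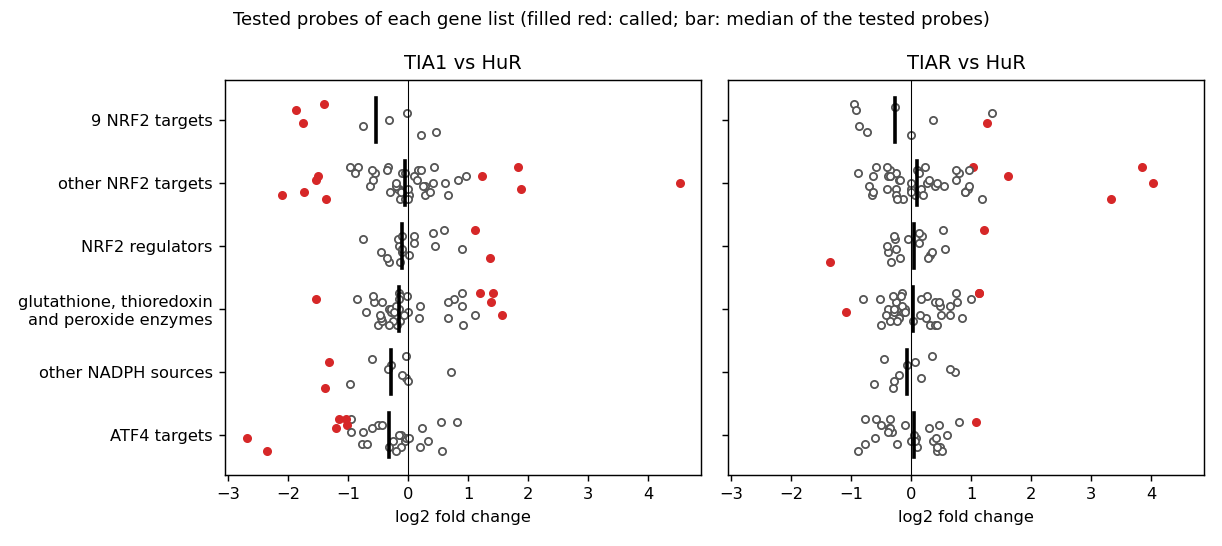
Log2 fold change (x axis) of the tested probes of 6 gene lists (y axis) for TIA1 and TIAR against HuR. Filled red points were called, open points were not, and bars are medians. The bar of the 9 targets lies at -0.54 with TIA1 and -0.27 with TIAR, and those of the other NRF2 targets at -0.06 and 0.10. The points farthest to the right are AKR1C probes that were not well above background with HuR.

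Other known NRF2 targets moved in both directions. Between TIA1 and HuR, 45 probes of 31 genes were tested, and 3 genes (4 probes) were called higher and 4 (5 probes) lower, with a median of -0.06, beside 8.6% and 4.84% of all probes. PIR, a redox-sensitive iron protein, read 0.19 and 0.18 with TIA1 against 2.31 and 2.26 with HuR. It changed by -2.10 (adjusted p = 0.0018 from limma). PTGR1, which reduces reactive aldehydes, changed by -1.73 on 1 probe (adjusted p = 0.005 from limma), while its other probe differed by 0.22 in the opposite direction (adjusted p = 0.19 from limma). SLC6A9, a glycine carrier, changed by -1.53 and -1.50 on its probes (adjusted p = 0.003 and 0.0036 from limma). ABCC1, which exports glutathione conjugates, changed by -1.37. The aldo-keto reductases went the opposite way. AKR1C3 was at least 12.8-fold higher with TIA1 than with HuR, where neither array read it well above background, so that it passed the filter only through TIA1. AKR1B10 rose by 1.83 and 1.88 on its probes. ABCC4, an anion exporter, was 1.23 higher.

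With TIAR, 47 probes of 32 genes were tested against HuR, and 4 genes (5 probes) were called higher and 0 lower, beside 7.15% and 2.93% of all probes. AKR1C3 was at least 9.09-fold higher, and AKR1C1 at least 6.25-fold and 4.58-fold on 2 of its 3 probes. These probes were not well above background with HuR, so both genes passed the filter only through TIAR. The third AKR1C1 probe was not well above background in either line, with means of -7.44 and -7.71, and was not tested. AKR1B10 was called on 1 of its probes, by 1.61, while the other differed by 0.95. FTL, the ferritin light chain, was called on 1 probe, by 1.03, and its other probes differed by 0.89 and 0.96. AKR1C1, AKR1C2 and AKR1C3 are related genes of similar sequence, so their probes may share signal. Between the TIA lines, PTGR1 was 2.62 higher with TIAR (adjusted p = 0.019), PIR 1.44 (adjusted p = 0.023) and SLC48A1, a haem transporter, 1.30 on 1 of its probes (adjusted p = 0.03), from limma. In all, 5 of 32 genes tested (6 of 47 probes) were called higher and 0 lower, beside 1.26% and 1.11% of all probes. None of these calls was kept with the replicate number as a block, which called 0 probes, and few calls of any kind were made without any 1 array. On that PTGR1 probe TIAR read -0.09 and -0.08 and TIA1 -2.49 and -2.93, while the other PTGR1 probe, with -0.87 and -0.68 against -0.93 and -0.76, overlapped and was not called.

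**Figure D4:**
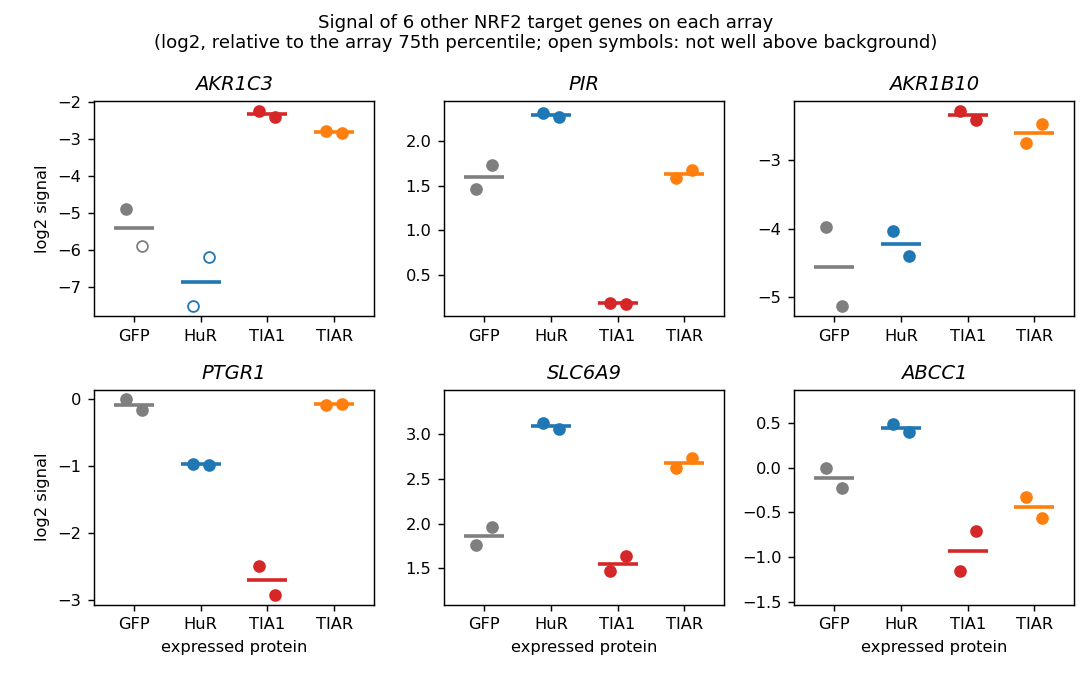
Log2 signal relative to the array's 75th percentile (y axis) of 6 other NRF2 targets on each array, by expressed protein (x axis). Points are arrays, lines are means of 2 arrays, and open points were not well above background. PIR, PTGR1, SLC6A9 and ABCC1 lie lowest with TIA1, and AKR1C3 and AKR1B10 lie higher with TIA1 and TIAR than with HuR.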

How the data were processed

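RNA of 4 FT293 lines was measured on 8 human one-colour arrays (SurePrint G3 8x60K v2), 2 per line. The authors deposited the scanner output of each array, made with Agilent Feature Extraction 10.7.3.1, whose processed signal is a background-subtracted and detrended intensity, not normalized between arrays. The authors' matrix of the series holds deposited log2 values, used only as an alternative. How they were normalized is not given in the sources used here, and the TIAR arrays there had a median of 7.36 against 7.41 to 7.51 for the others.

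Here control spots and outlier spots were left out, processed signals were log2-transformed relative to each array's 75th percentile, and spots of a probe were averaged. Each pair of lines was compared with limma 3.58.1 (lmFit and eBayes) in R 4.3.3, with Benjamini-Hochberg adjustment over all probes tested. Bounds written as at least N-fold replace a dim line's values, array by array, with the weakest signal that still counted as well above background, unless the probe itself was brighter. Plots were drawn with matplotlib 3.10.9. The fit was run on simulated data with planted changes larger than those of the members. That run checks the code and does not measure accuracy for changes of the members' size. Probe positions are hg19, promoters RefSeq GRCh38.p14.

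The text names the 9 members, the NRF2 regulators NFE2L2, KEAP1, BACH1 and the small MAFs, the called probes of the other lists (the 4 with the largest fold change where more were called) and the 5 probes most correlated with ME1 and with SLC7A11. CUL3 is named as a called regulator. Members and lists were chosen with earlier results of these data known. Alternatives covered background correction, normalization, the scaling percentile, filters, the arrays in the fit, array weights, a replicate block, omission of single arrays, and the paired test of the methods. The series' design text calls the replicates independent, and p-values measure the spread between these cultures.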

Additional observations from a re-analysis of the deposited data

How the results depend on the processing

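Between TIA1 and HuR, ME1, SLC7A11 and HMOX1 were called in every limma setting, against 3 members reported and 1 (SLC7A11) by the methods' paired test without adjustment and 0 with Benjamini-Hochberg adjustment. That test rests on 2 pairs whose numbers do not pair the arrays, and after adjustment it called 0 probes in all 6 comparisons, so it says nothing about stability. Leaving out single arrays gave 3 to 4 called members. Between TIAR and HuR, where 1 member was reported, the count was 0 with quantile normalization, with normexp and quantile normalization together, with the authors' log2 values and with the paired test after adjustment, and 2 with array weights and with the unadjusted paired test. The member added in both was NQO1, which passed the filter only through TIAR. With normexp alone the count was 1, but ME1 lower in place of OSGIN1. Leaving out single arrays gave 0 to 4. Between TIAR and TIA1, with 0 reported, 2 were called with array weights and 1 with probes well above background on all 4 arrays. Between HuR and GFP, with 0 reported, 3 were called with all 8 arrays in 1 fit and 1 by the unadjusted paired test, and 0 to 4 when single arrays were left out. Between TIA1 and GFP, leaving out single arrays gave 0 to 1. In fits without 1 array, the lone array of a line was assumed to vary like the other line. No member value called in the main fits changed sign in any setting. OSGIN1 between HuR and GFP, not called there, was called lower with all 8 arrays in 1 fit but was 0.63 with quantile normalization. The cause of these changes was not tested.

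Replicate numbers did not pair the arrays, since the correlations of deviations from the line means were -0.07 to 0.15. With the replicate block, 2 members (OSGIN1 and NQO1) were called between TIAR and HuR, 3 between TIA1 and HuR and 0 in the other comparisons. NQO1 passed the filter there only through TIAR, and its bound in the main values, at least 1.89-fold, is short of 2-fold. The block called 7.15% of all probes higher and 2.93% lower between TIAR and HuR, and 8.63% and 4.92% between TIA1 and HuR. Over all probes, the block changed the calls between TIAR and TIA1 from 352 higher and 311 lower to 0 and 0. Quantile normalization moved the median log2 fold change of all probes between HuR and GFP from -0.04 to 0.22, and normexp reduced the calls between TIA1 and HuR from 2471 higher and 1391 lower to 1531 and 670. OSGIN1 and NQO1 lie near background, and signal over background limits what can be said of them.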

Other observations

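Outside the NRF2 targets, the amino acid response genes driven by ATF4 were lower in part with TIA1 than with HuR. Of 22 such genes tested between TIA1 and HuR, 5 were called lower and 0 higher. By probes, 6 of 29 were called lower, beside 4.84% of all probes, and the median was -0.32 against 0.09 over all probes. Against GFP, 0 genes of the list were called, and its medians were 0.09 with TIA1, 0.52 with TIAR and 0.45 with HuR. Over all probes these were 0.01, -0.02 and -0.04. PCK2, a mitochondrial enzyme that makes phosphoenolpyruvate, read -2.66 and -2.58 with TIA1 against -0.27 and -0.26 with HuR, a change of -2.36 (adjusted p = 0.0017 from limma), and its other probe, not well above background with TIA1, was at least 1.95-fold lower. CTH, which makes cysteine from cystathionine, changed by -1.21 (adjusted p = 0.0044 from limma) and PSAT1, of serine synthesis, by -1.15 on 1 probe (adjusted p = 0.0078 from limma) and by -0.95, under 2-fold, on the other. With TIAR 1 gene of the list was called, DDIT3, 1.08 higher (adjusted p = 0.012 from limma), with a median of 0.05.

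Among other NADPH sources, 2 of 9 genes (2 of 11 probes) were called lower with TIA1 than with HuR and 0 higher, beside 4.84% and 8.6% of all probes. IDH2, the mitochondrial isocitrate dehydrogenase, changed by -1.38 (adjusted p = 0.0038 from limma), while ALDH1L1, of folate metabolism, was not well above background with TIA1, passed the filter only through HuR, and has a bound of at least 1.53-fold lower, short of 2-fold. Of 26 other genes of glutathione, thioredoxin and peroxide metabolism, TXNRD3 changed by -1.54 with TIA1 (adjusted p = 0.0027 from limma), whereas TXNIP, the thioredoxin inhibitor, was called higher in both TIA lines, by 1.20 and 1.13. GGT1, which breaks down extracellular glutathione, was higher with TIA1 by 1.39 to 1.57 on 3 of its 5 probes, and by 1.11 and 0.91, not called, on the others. With TIAR, GPX8 changed by -1.09 on 1 probe and by -0.10, not called, on the other, and GGT7 by 1.13 on 1 probe and by 0.99, not called, on the other.

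Among 24959 probes well above background on all 8 arrays, those whose signals followed ME1 most closely were TRIB2, GPM6A, C8orf83, ZEB1-AS1 and LOC100506472, with Pearson's r of 0.988 to 0.974 across the 8 arrays. For SLC7A11 they were MAGI2, SYDE2, CRNDE, TOX3 and AIG1, with r of 0.988 to 0.975. With 2 arrays per line, these values mostly describe the same 4 line means.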
